A study of Mus musculus with 34 samples.

Results

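Mouse small cell lung cancer (SCLC) cells kept on bomedemstat (BOM), which blocks the histone demethylase LSD1, were compared with and without interferon gamma (IFNg), a cytokine that activated T cells and natural killer cells release. The comparison rests on 4 RNA sequencing libraries, 2 of cells treated with BOM alone and 2 of cells treated with BOM and IFNg, which were taken by their labels from the 10 libraries of the 10 d cultures and the 34 samples of the series. All were of 1 cell line, RP-48OVA-LLO190. Both groups had BOM for 10 d, so the labelled difference between them is IFNg, present in the last 48 h in the BOM+IFNg group. The other 6 libraries of these cultures carried DMSO in place of BOM, 3 without and 3 with IFNg. They entered the same fit and gave the reference for asking whether the IFNg response differed between backgrounds. The doses of BOM and IFNg are not given in the sources used here. The labels do not say whether the replicates were separate cultures, so the p-values measure the spread between these libraries, which may be technical. In bulk RNA, fewer cells of a type and less RNA per cell cannot be told apart.

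IFNg binds a receptor made of Ifngr1 and Ifngr2 chains, whose kinases Jak1 and Jak2 activate transcription factors of the STAT family. These factors bind the gamma-activated site (GAS), and a second wave of interferon regulatory factors binds the interferon-stimulated response element (ISRE). The response is best known for raising antigen presentation by major histocompatibility complex (MHC) molecules, which SCLC cells often hold at a low level.

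The BOM libraries held 6162589 and 6563179 counts and the BOM+IFNg libraries 6207619 and 9044398. The noncoding transcript Gm26917 took 8.36 to 9.85% of the counts in these 4 libraries. Of the 30351 genes in the table, 15230 had enough counts to be tested. The labels call these cultured SCLC cells, and neuroendocrine markers stood at unequal levels in them. The neuroendocrine transcription factor Insm1 stood at 1341 and 1577 CPM (counts scaled to library size) without and at 1366 and 1161 CPM with IFNg. The synaptic vesicle protein Syp stood at 56.8 and 57.0 CPM without and at 59.8 and 59.6 CPM with it. The neuroendocrine markers Dll3, at 2.18 to 4.82 CPM, and Calca, at 9.83 to 23.5 CPM, were low in all 4 libraries. Markers of immune cells were nearly absent. Of 16 listed genes, the 3 that were tested summed to 7.47 and 8.88 CPM without and 10.1 and 8.41 CPM with IFNg. The other listed genes had too few counts to be tested. Among these, the T cell gene Cd3d, the killer cell gene Nkg7, the macrophage gene Adgre1, the dendritic cell gene Itgax and the neutrophil gene S100a8 had 0 counts in all 4 libraries. Of the 3 that were tested, 0 were called in edgeR, DESeq2 or voom, and 0 had an unadjusted p under 0.05.

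IFNg changed 314 of the 15230 genes tested in BOM-treated cells (2.06%). Of these, 264 rose (1.73%) and 50 fell (0.328%), by the quasi-likelihood test of edgeR with a Benjamini-Hochberg adjusted p under 0.05. An unadjusted p under 0.05 was reached by 1551 genes. The rises were large and the falls small: 189 genes rose at least 2-fold, 137 at least 4-fold and 34 at least 64-fold, while the log2 fold changes of the 50 falling genes ran from -0.99 to -0.37. Among the 264 genes that rose, 25 had 0 counts in both BOM libraries. For these a fold change is given as a lower bound, with 3 counts over the 2 BOM libraries in place of 0, and such genes passed the filter on low counts through the libraries with IFNg. For the 24 rising genes with 1 to 3 counts over both BOM libraries, the ratio is given with its 95% counting interval. Bounds and intervals cover counting error only.

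Both BOM+IFNg libraries lay above both BOM libraries for 263 of the 264 genes that rose and below them for 50 of the 50 that fell. Over all genes tested, that ordering held for 19.0% upward and 20.6% downward. The genes were called from these same libraries, so their ordering largely follows from the calls and is no separate support. The 264 genes together took 0.853 and 0.790% of all counts in the BOM libraries and 2.64 and 2.81% in the BOM+IFNg libraries. The number of calls depended on which library was used. Without BOM replicate 2 there were 166 rises and 12 falls, without BOM replicate 1 there were 187 and 20, without BOM+IFNg replicate 2 there were 187 and 21, and without DMSO+IFNg replicate 1 there were 271 and 77. A fit blocked on replicate number called 330 rises and 128 falls.

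**Figure D1:**
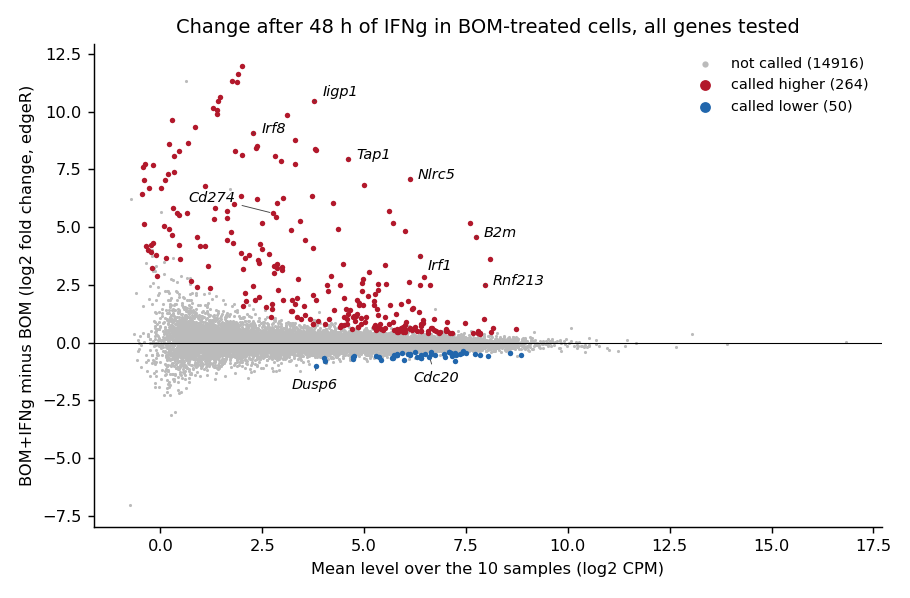
Change after IFNg in BOM-treated cells against level, for the 15230 genes tested. The x axis is the mean log2 CPM over the 10 samples and the y axis the log2 fold change between BOM+IFNg and BOM fitted by edgeR; red points are the 264 genes called higher, blue points the 50 called lower and grey points the rest. The rises spread over a wide range and the falls stay between -0.99 and -0.37; for genes with 0 counts in both BOM libraries the height is the fitted value, which is no bound.

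The receptor itself did not pass the test, while the signaling proteins downstream of it did in part. Of 12 tested members of the receptor and JAK-STAT list (13 listed), 4 rose, among them Stat2, Stat3 and Jak2, and none fell. The median log2 fold change of the list was 0.30, against -0.01 over all genes tested.

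Ifngr1, the ligand-binding chain, stood at 13.9 and 15.7 CPM in the BOM libraries and at 13.1 and 17.7 CPM in the BOM+IFNg libraries. Ifngr2, the signaling chain, stood at 12 and 12.5 CPM without and at 13.2 and 14.5 CPM with IFNg. For Ifngr1 the libraries with IFNg enclosed those without, and for Ifngr2 they lay above them by 0.18 on the log2 scale (edgeR adjusted p = 0.866).

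Stat2, a factor best known from type I interferon signaling, stood at 40.6 and 33.6 CPM in BOM cells and at 281 and 249 CPM after IFNg. The groups were far apart, and the log2 fold change was 2.84 ± 0.12 (SE). Stat3, a further factor of the family, went from 218 and 213 CPM to 412 and 476 CPM (1.04 ± 0.09), and its reads cannot be separated by strand from those of the overlapping Stat5a, which did not pass the test.

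Jak2, the kinase of the Ifngr2 chain, stood at 55.0 and 59.9 CPM without and at 78.6 and 91.9 CPM with IFNg (0.57 ± 0.12, edgeR adjusted p = 0.0124). The groups did not overlap, but the call was lost without BOM replicate 1, BOM replicate 2 or BOM+IFNg replicate 2. Jak1, the kinase of the other chain, went from 139 and 129 CPM to 157 and 201 CPM without passing (0.42 ± 0.12, edgeR adjusted p = 0.107).

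Among 11 tested feedback inhibitors of the pathway, 2 rose and none fell (median log2 fold change 0.11). Socs1, which blocks JAK kinases, stood at 2.02 and 1.50 CPM without and at 13.8 and 18.1 CPM with IFNg (3.18 ± 0.40, edgeR adjusted p = 1.74e-05). Usp18, which restrains interferon receptor signaling, went from 1.87 and 2.56 CPM to 31.3 and 25.7 CPM (3.67 ± 0.36). The phosphatases Ptpn1, Ptpn2 and Ptpn11 and the related inhibitor Socs3 did not pass, and neither did Ptpn6, at 0.934 and 0.903 CPM without and at 0.156 and 0.218 CPM with IFNg. For Socs3 only BOM+IFNg replicate 2 stood apart, with 73.2 CPM beside 37.0 CPM in replicate 1 and 33.2 and 38.4 CPM without IFNg.

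Of 10 tested interferon regulatory factors and partners (11 listed), 6 rose: Irf1, Irf2, Irf7, Irf8, Irf9 and Batf2. Over the list the median log2 fold change came to 1.88. Irf3, Irf5 and Batf3 were among those that did not pass.

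Irf1 (chr11:53770014-53778374, GRCm38), an early factor of the second wave, stood at 26.6 and 28.4 CPM without and at 315 and 416 CPM with IFNg (3.73 ± 0.18, edgeR adjusted p = 1.01e-10). Irf8, a factor best known from myeloid cells, had 0 and 1 counts in the BOM libraries and 300 and 506 in the BOM+IFNg libraries, a ratio of 676 (95% counting interval 121 to 26726). Irf9, the DNA-binding partner of STAT factors, went from 19.9 and 15.5 CPM to 104 and 102 CPM (2.54 ± 0.13). All of these groups were separated by more than the spread within them.

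Batf2, a partner of Irf1 in myeloid cells, went from 0.623 and 0.602 CPM to 21.9 and 30.8 CPM (5.39 ± 0.55). Irf7, the factor that amplifies type I interferon responses, went from 2.34 and 4.67 CPM to 32.7 and 29.8 CPM (3.14 ± 0.33). Irf2, which shares the Irf1 binding site, changed little, from 65.1 and 57.0 CPM to 89.2 and 97.2 CPM (0.61 ± 0.11, edgeR adjusted p = 0.00356). The call for Irf2 was lost without BOM replicate 2 or BOM+IFNg replicate 2.

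Both transactivators of MHC genes rose. Nlrc5 (chr8:94434356-94527272), which drives class I genes, stood at 5.61 and 4.51 CPM without and at 714 and 672 CPM with IFNg (7.09 ± 0.21, edgeR adjusted p = 1.57e-14), with a gene on the opposite strand in the same span. Ciita (chr16:10480059-10528418), which drives class II genes, stood at 17.6 and 15.7 CPM without and at 174 and 165 CPM with IFNg (3.35 ± 0.14). The Nlrc5 libraries with IFNg were above 600 CPM and those without were near 5, so Nlrc5 differed far beyond its spread. The RFX subunits Rfx5, Rfxank and Rfxap, with which both transactivators work on DNA, did not pass the test (2 of 5 tested members of this list rose, median log2 fold change 0.27).

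The 300 bases around the transcription start (250 before to 50 after) were searched for a GAS match, TTCNNNGAA, and for an ISRE core match, GAAANNGAA, on both strands, in RefSeq promoters of GRCm38.p6. Of the genes tested, 11230 had a window by symbol (14365 windows), and of the 264 rising genes 200 had 1 (249 windows). A GAS match was in 6.72% of all tested windows and in 14.5% of those of rising genes. An ISRE core match was in 6.73% of all and in 28.9% of those of rising genes. Where the rise was at least 4-fold (113 windows), the shares were 21.2% for GAS and 43.4% for the ISRE core, and where it was under 2-fold (79 windows) they were 5.06% and 12.7%. The 37 windows of falling genes held a GAS match in 2.7% and an ISRE core match in 10.8%. A match describes the letters and not a bound site, and RefSeq windows with no match say nothing about sites farther away. The 250 bases before each start of H2-K1 and Tap1 held neither motif.

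Stretches from 8 rising genes are shown because they carry these matches close to the start site, with the matched letters in capitals and 25 flanking bases in lower case where the window allows. All are 5′ to 3′ along the gene's own strand, from GRCm38.p6. Irf1 (chr11:53769899-53769957, plus strand), Irf8 (chr8:120736162-120736238, plus) and Psmb8 (chr17:34198073-34198131, plus) hold GAS matches, 2 of them in Irf8. B2m (chr2:122147523-122147581, plus) and Cd274 (chr19:29367337-29367395, plus) hold an ISRE core, read on the opposite strand in Cd274. Gbp7 (chr3:142530205-142530317, plus), Igtp (chr11:58199486-58199555, plus) and Bst2 (chr8:71537563-71537633, minus) hold both motifs, which overlap in Bst2. The ISRE core of Gbp7 is also read on the opposite strand.
Irf1: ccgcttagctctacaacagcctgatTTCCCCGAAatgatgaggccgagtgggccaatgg
Irf8: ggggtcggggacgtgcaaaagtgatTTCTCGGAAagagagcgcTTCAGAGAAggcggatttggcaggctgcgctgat
Psmb8: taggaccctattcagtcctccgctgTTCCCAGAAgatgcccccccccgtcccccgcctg
B2m: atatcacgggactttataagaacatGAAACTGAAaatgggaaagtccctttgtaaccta
Cd274: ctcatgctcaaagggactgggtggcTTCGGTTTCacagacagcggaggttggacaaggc
Gbp7: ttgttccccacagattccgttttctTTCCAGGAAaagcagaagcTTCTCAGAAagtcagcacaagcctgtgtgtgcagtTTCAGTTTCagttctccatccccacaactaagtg
Igtp: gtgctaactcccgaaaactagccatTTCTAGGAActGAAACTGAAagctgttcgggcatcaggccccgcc
Bst2: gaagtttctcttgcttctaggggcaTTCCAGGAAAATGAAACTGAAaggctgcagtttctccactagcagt

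**Figure D2:**
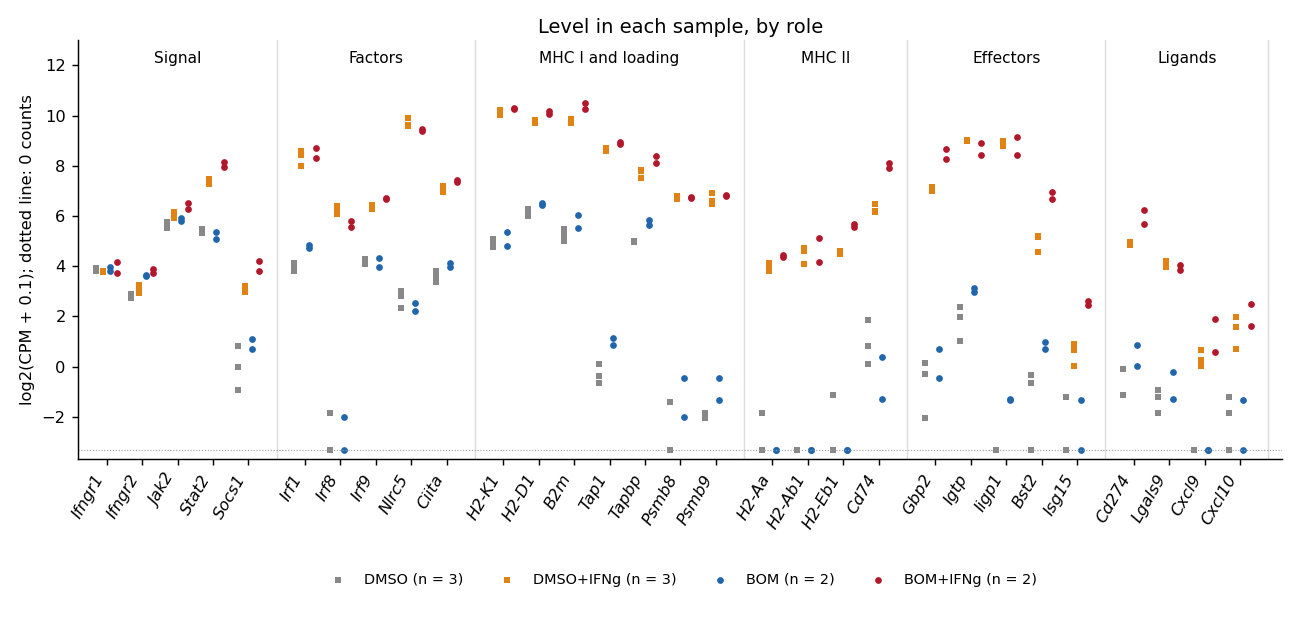
Level of selected genes in each of the 10 libraries, grouped by role; the y axis is log2(CPM + 0.1), the dotted line marks 0 counts, squares are DMSO (grey) and DMSO+IFNg (orange) libraries and circles are BOM (blue) and BOM+IFNg (red) libraries. The receptor chains stay level across groups, whereas Irf1, at 26.6 and 28.4 CPM in the BOM libraries and 315 and 416 CPM in the BOM+IFNg libraries, shows the wide separation shared by most of the other genes drawn.

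Class I chains, peptide loading and the immunoproteasome all held genes that rose. Of 11 tested class I chains (19 listed), 9 rose, with a median log2 fold change of 4.58. H2-K1 (chr17:33996017-34000347), a classical class I heavy chain, stood at 40.5 and 27.7 CPM without and at 1228 and 1261 CPM with IFNg (5.19 ± 0.14, edgeR adjusted p = 1.46e-13). H2-D1, a further classical heavy chain, went from 91.3 and 87.3 CPM to 1065 and 1153 CPM (3.64 ± 0.10). B2m (chr2:122147686-122153083), the light chain that every class I molecule needs, went from 64.9 and 46.2 CPM to 1225 and 1434 CPM (4.58 ± 0.15). All 3 were separated by over 10-fold, and per length, in TPM (scaled to gene length, from the lengths in the table, and then to library size), B2m was the highest of the 3, at 295 TPM without and 7130 TPM with IFNg.

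Nonclassical chains were mixed. H2-T23, the chain that natural killer cell receptors read, stood at 3.11 and 3.31 CPM without and at 92.0 and 105 CPM with IFNg (4.93 ± 0.31). H2-M3, which presents bacterial and mitochondrial peptides, went from 1.56 and 1.50 CPM to 18.4 and 15.1 CPM (3.43 ± 0.40). H2-Q7 had 0 counts in both BOM libraries and reached 21.5 and 19.0 CPM after IFNg (at least 87.2-fold higher). H2-Q6 was at least 31.9-fold higher.

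H2-Q4 had 0 and 2 counts without and 433 and 525 with IFNg, a ratio of 402 (95% counting interval 111 to 3321). H2-T10 rose at a low level, with a ratio of 16.8 (4.35 to 143), and lost its call when any of the 4 libraries was left out. H2-T22 and H2-T24 did not pass, at 7.16 to 11 CPM and 12.8 to 16.7 CPM over the 4 libraries. Members of the H2-Q and H2-T families are near-identical, so the split of reads among them is uncertain.

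In the peptide loading list, 5 of 9 tested genes rose and none fell (median log2 fold change 2.23). Tap1, a subunit of the transporter that carries peptides into the endoplasmic reticulum, stood at 1.71 and 2.11 CPM without and at 489 and 462 CPM with IFNg (7.94 ± 0.29, edgeR adjusted p = 1.00e-15). Tap2, its partner, went from 2.34 and 2.41 CPM to 62.2 and 79.5 CPM (4.89 ± 0.36). Tapbp, the tapasin that holds class I to the transporter, went from 57.3 and 49.8 CPM to 278 and 334 CPM (2.52 ± 0.12).

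Tapbpl, a tapasin-related editor, and Erap1, the peptidase that trims peptides, rose by 2.23 ± 0.22 and 2.27 ± 0.14 on the log2 scale. The general chaperones Calr, Canx, Pdia3 and Hspa5 were abundant in every library and did not pass the test. In Pdia3, for example, the libraries without IFNg stood at 395 and 411 CPM and those with IFNg at 399 and 474 CPM.

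The proteasome subunits divided by kind. The inducible subunits Psmb8, Psmb9 and Psmb10, which replace the constitutive catalytic subunits in the immunoproteasome, all rose. Psmb8 went from 0.623 and 0.150 CPM to 105 and 109 CPM (8.06 ± 0.65, edgeR adjusted p = 9.37e-13), and Psmb9 from 0.623 and 0.301 CPM to 114 and 110 CPM (7.88 ± 0.59). Psmb9 and Tap1 overlap on opposite strands, so reads in the overlap cannot be assigned. Psmb10 went from 7.01 and 6.62 CPM to 69.4 and 77.3 CPM (3.43 ± 0.20).

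The PA28 activator subunits Psme1 and Psme2 rose by 1.81 ± 0.13 and 1.45 ± 0.15 on the log2 scale, and the assembly factor Pomp did not pass (0.03 ± 0.15). Of the 16 tested genes of the constitutive core and its other activators, 0 were called in edgeR, DESeq2 or voom, 1 had an unadjusted p under 0.05, and the median log2 fold change was -0.02. Psmb6, the constitutive counterpart of Psmb9 and the one with the lowest p in that list, stood at 83.3 and 80.8 CPM without and at 68.3 and 71.2 CPM with IFNg (-0.23 ± 0.11, edgeR adjusted p = 0.469).

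MHC class II genes are mostly restricted to antigen-presenting cell types. Those that rose here had few or no counts without IFNg and were plainly detected with it. Of 8 tested members (13 listed), 6 rose, with a median log2 fold change of 8.48 as fitted and 5.75 with bounds in place of fitted values for genes at 0. Of the tested members, 4 had 0 counts in both BOM libraries and so were tested only through the libraries with IFNg. The other listed members had too few counts to be tested. Cd74, the invariant chain that guards the class II groove, stood at 0.311 and 1.20 CPM without and at 240 and 278 CPM with IFNg (8.37 ± 0.58, edgeR adjusted p = 1.46e-12). The class II chains H2-Aa, H2-Ab1 and H2-Eb1 had 0 counts in both BOM libraries.

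H2-Aa reached 21.9 and 20.7 CPM (at least 92.5-fold higher). H2-Ab1 reached 17.9 and 34.3 CPM (at least 120-fold higher). H2-Eb1 reached 46.8 and 51.0 CPM (at least 215-fold higher). The peptide exchange factor H2-DM rose in both chains: H2-DMa went from 2.96 and 2.71 CPM to 26.6 and 26.6 CPM (3.22 ± 0.29), and H2-DMb1 was at least 31.3-fold higher.

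The endosomal enzymes Ifi30 and Lgmn did not pass, at 12.3 to 16.3 and 61.6 to 69.0 CPM over the 4 libraries, and the protease Ctss had at most 1 count in any of them. The class II rise stood beside immune markers that stayed near 0: Ptprc, the marker of all white blood cells, was at 0.311 and 0.150 CPM without and at 0.467 and 0.109 CPM with IFNg.

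The guanylate-binding proteins and the immunity-related GTPases, families that attack the vacuoles of intracellular pathogens, rose in each tested member: 10 of 10 guanylate-binding proteins (11 listed, median log2 fold change 7.28 as fitted and 7.26 with bounds) and 12 of 12 immunity-related GTPases (16 listed, 8.87 as fitted and 6.21 with bounds). Several had 0 counts without IFNg and so were tested only through the libraries with it. Gbp2 stood at 0.623 and 1.50 CPM without and at 308 and 407 CPM with IFNg (8.36 ± 0.45, edgeR adjusted p = 2.01e-13). Gbp7 went from 4.05 and 3.31 CPM to 408 and 421 CPM (6.81 ± 0.21), and Gbp3 from 0.156 and 0.903 CPM to 238 and 240 CPM (8.75 ± 0.55).

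In these 3 genes each library with IFNg was over 100-fold above each without. Gbp4 had 3 counts over both BOM libraries and 1226 and 2467 with IFNg, a ratio of 1032 (95% counting interval 353 to 5007). Gbp10 was at least 209-fold higher. Gbp4, Gbp8 and Gbp9 overlap on the same strand and the family is near-identical, so reads may be shared among members.

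Among the immunity-related GTPases, Iigp1 had 2 counts in each BOM library and stood at 347 and 570 CPM after IFNg (10.47 ± 0.95, edgeR adjusted p = 7.45e-12). Irgm1, a regulator of the family, went from 11.1 and 12 CPM to 324 and 508 CPM (5.17 ± 0.22). Igtp, a related regulator, went from 8.56 and 7.68 CPM to 350 and 485 CPM (5.68 ± 0.21). BOM+IFNg replicate 2 was the higher of the 2 in all 3 of these genes.

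Irgm2 rose by 6.06 ± 0.29 on the log2 scale. Ifi47 had 2 counts over both BOM libraries, with a ratio of 389 (107 to 3214). Tgtp1 and Tgtp2, near-identical copies, were at least 55.1-fold and 82.5-fold higher.

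Genes better known from type I interferon responses rose as well. Of 33 tested effectors (39 listed), 29 rose, and the median log2 fold change was 3.57 as fitted and 3.41 with bounds. With a library left out, 23 to 29 of them were called. Bst2, a tether that holds budding viruses on the cell, stood at 1.87 and 1.50 CPM without and at 102 and 125 CPM with IFNg (6.06 ± 0.40). Ifi27, a mitochondrial protein, went from 42.7 and 36.4 CPM to 263 and 232 CPM (2.64 ± 0.12, edgeR adjusted p = 3.60e-11). Xaf1, a cell death adaptor, went from 6.70 and 4.36 CPM to 97.3 and 91.0 CPM (4.09 ± 0.21).

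The classical antiviral genes reached lower levels. Mx1, a GTPase that traps viral particles, went from 1.87 and 1.50 CPM to 29.7 and 26.4 CPM (4.04 ± 0.33), and Rsad2, the antiviral enzyme viperin, rose by 3.57 ± 0.31. Isg15, a ubiquitin-like modifier, had 2 counts over both BOM libraries and 5.45 and 6.01 CPM with IFNg (ratio 37.7, interval 10.1 to 316). Oasl2, an oligoadenylate synthetase relative, had 3 counts and then 69.4 and 70.4 CPM (ratio 305, interval 104 to 1481). Ifit2, Oas1c and Ifitm2 were among those that did not pass. Ifit2 stood at 35.3 and 26.2 CPM without and at 42.2 and 38.8 CPM with IFNg (0.39 ± 0.18, edgeR adjusted p = 0.469), although Ifit1 rose from 0 and 2 counts to 57 and 95.

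Of 10 tested nucleic acid sensors (20 listed), 6 rose (median log2 fold change 1.57): Zbp1, Ddx58, Ifih1, Dhx58, Tlr3 and Adar. Zbp1, a sensor of left-handed nucleic acid, went from 1.09 and 1.05 CPM to 43.3 and 34.8 CPM (5.16 ± 0.39). Ddx58 and Ifih1, the cytosolic sensors of viral RNA, rose by 3.28 ± 0.29 and 2.50 ± 0.15 on the log2 scale. Their adaptor Mavs, and Cgas, Tmem173 and Myd88, did not pass. Mavs stood at 77.9 and 65.0 CPM without and at 72.2 and 69.7 CPM with IFNg.

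Enzymes that attach ADP-ribose or ubiquitin were raised too. In the PARP list 7 of 8 tested genes rose (median log2 fold change 2.11), led by Parp14, from 0.623 and 1.66 CPM to 80.6 and 97.2 CPM (6.26 ± 0.37). Dtx3l, a ubiquitin ligase, and its partner Parp9 rose by 2.52 ± 0.13 and 2.58 ± 0.17, and they overlap on opposite strands. Parp10 rose by 2.74 ± 0.17.

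Of 6 tested TRIM ligases (15 listed), 5 rose (median 1.44), and 3 to 5 were called with a library left out. Trim21, which binds antibody-coated virus in the cytosol, went from 1.09 and 2.71 CPM to 24 and 29.7 CPM (3.80 ± 0.35). Trim56 and Trim25 rose by 1.45 ± 0.17 and 0.87 ± 0.10. Of 8 tested ubiquitin-like modifiers and their enzymes (9 listed), 6 rose (median 2.30). Uba7, the activating enzyme of Isg15, went from 3.27 and 1.81 CPM to 103 and 93.8 CPM (5.27 ± 0.29), and Rnf213, a giant ubiquitin ligase, from 125 and 129 CPM to 757 and 687 CPM (2.51 ± 0.13). Slfn9, the only Schlafen gene tested of 8 listed, did not pass (0.19 ± 0.19).

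Of 9 tested checkpoint and co-stimulatory ligands (16 listed), 2 rose (median 0.51). Cd274 (chr19:29367455-29388095), which encodes PD-L1, the ligand that restrains T cells through PD-1, stood at 1.71 and 0.903 CPM without and at 51.8 and 75.5 CPM with IFNg (5.60 ± 0.38, edgeR adjusted p = 1.65e-10). Lgals9, which encodes galectin-9, went from 0.311 and 0.752 CPM to 16.5 and 14.3 CPM (4.79 ± 0.55). A predicted gene, Gm36043, overlaps Cd274 on the opposite strand.

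Cd47, the signal that stops macrophages from engulfing a cell, went from 224 and 260 CPM to 287 and 401 CPM without passing (0.51 ± 0.14, edgeR adjusted p = 0.0908). It passed with DESeq2, with the replicate block and without BOM+IFNg replicate 1. The adhesion molecule Icam1 went from 0.779 and 1.05 CPM to 3.73 and 4.59 CPM without passing (2.17 ± 0.70, edgeR adjusted p = 0.138).

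The T cell chemokines Cxcl9, Cxcl10 and Cxcl11 were at a low level. Of 3 tested (12 listed), Cxcl10 rose, from 0 and 2 counts to 19 and 50 counts, a ratio of 28.9 (95% counting interval 7.71 to 244, edgeR adjusted p = 0.00458). That call was lost without BOM replicate 1 or BOM+IFNg replicate 2. Cxcl9 was too low to be tested, with 0 counts in both BOM libraries and 9 and 33 with IFNg, at least 11.7-fold higher. Cxcl11 had at most 2 counts in each of the 4 libraries. Cx3cl1 and Cxcl12 did not pass, but they made up most of the summed level of the 3 tested genes. That sum was 56.7 and 52.7 CPM without and 58.8 and 82.0 CPM with IFNg.

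Both tested genes of the complement and serpin list (16 listed) rose. Both were near 0 in the libraries without IFNg and so were tested only through the libraries with it. C4b, a complement component, went from 0.623 and 1.05 CPM to 67.5 and 62.6 CPM (6.24 ± 0.44), and the serpin Serpina3f was at least 10.6-fold higher at 2.49 and 2.40 CPM, losing its call without BOM replicate 2. In the metabolism list 2 of 3 tested genes (11 listed) rose: the peptidase Lap3 by 0.90 ± 0.10 and the tryptophanyl-tRNA synthetase Wars by 0.83 ± 0.14. Wars lost its call without BOM replicate 1 or BOM+IFNg replicate 2. Ido1, the tryptophan-degrading enzyme that IFNg induces in many tumors, had 0 counts in each of the 4 libraries, and Gch1 did not pass.

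Of 19 tested cell death genes (23 listed), 4 rose and none fell (median 0.29). Tnfsf10, which encodes the death ligand TRAIL, stood at 2.02 and 1.66 CPM without and at 20.5 and 34.0 CPM with IFNg (3.89 ± 0.43). Mlkl, the pore former of necroptosis, went from 23 and 21.7 CPM to 49.2 and 55.4 CPM (1.23 ± 0.16, edgeR adjusted p = 0.000106). Ripk3, the kinase that activates Mlkl, had 0 counts in all 4 libraries, and the death receptor Fas had 2 counts in BOM replicate 2 and 0 elsewhere.

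The inflammatory caspases Casp1 and Casp12 rose from at most 4 counts a library to 15 and 36 counts for Casp1 and 24 and 34 counts for Casp12. Casp1 lost its call without BOM replicate 2 or BOM+IFNg replicate 2, and Casp12 when any of the 4 libraries was left out. The apoptosis regulators Casp8, Bcl2 and Mcl1 did not pass, with log2 fold changes of -0.09 ± 0.19, -0.05 ± 0.17 and -0.02 ± 0.14.

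**Figure D3:**
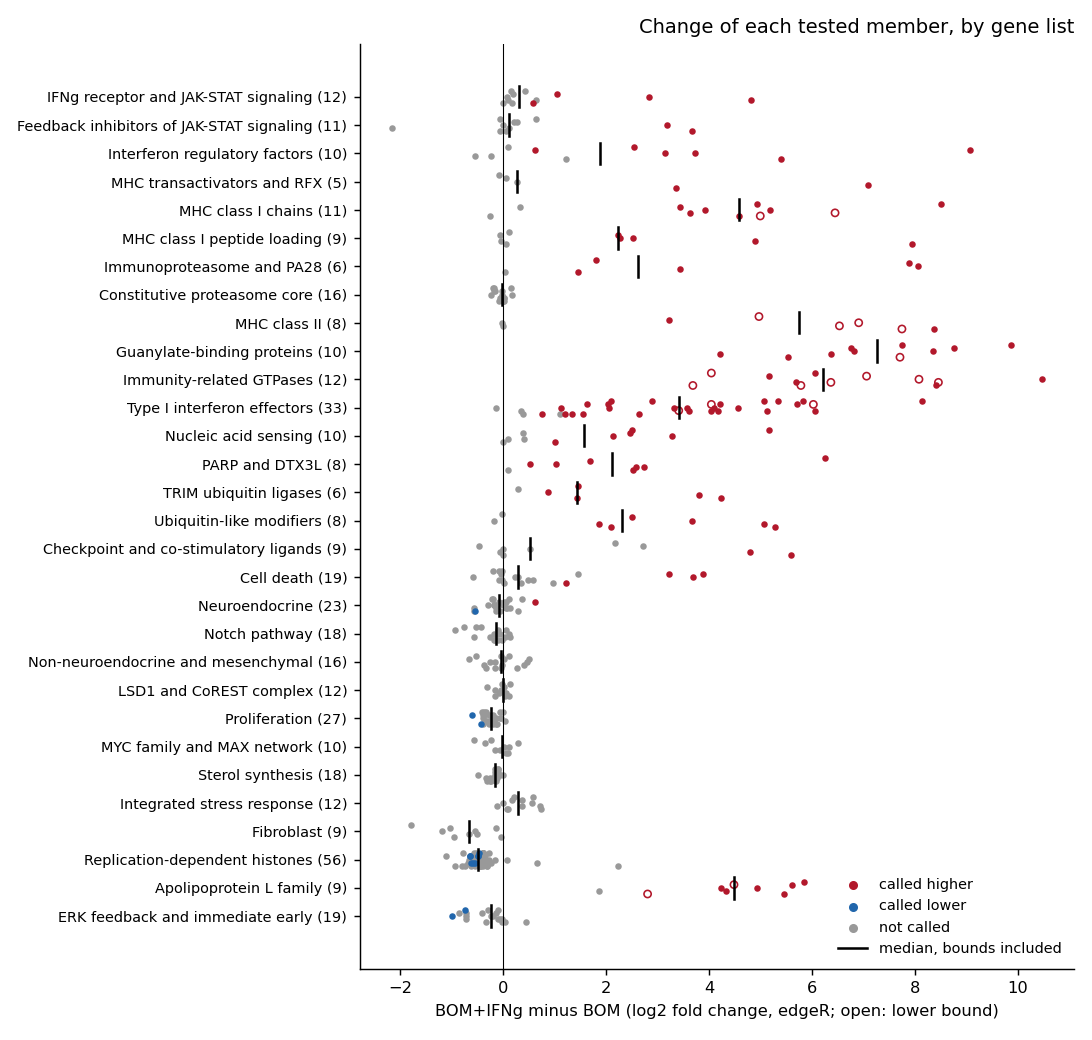
Change of each tested member of the gene lists with at least 5 tested members, on a log2 fold change axis (BOM+IFNg minus BOM, edgeR). Red and blue points are genes called higher and lower, grey points are not called, open circles are lower bounds for genes with 0 counts in both BOM libraries, and black bars are medians with the bounds included; the GTPase and class II lists sit farthest right, at medians of 7.26, 6.21 and 5.75, and the constitutive proteasome sits at -0.02.

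Lineage genes mostly did not pass the test. Of 23 tested neuroendocrine genes, 1 rose and 1 fell, and their summed level was 5737 and 6283 CPM without and 5862 and 5510 CPM with IFNg. The gene that rose was Chgb, a granule protein, which went from 451 and 368 CPM to 695 and 557 CPM (0.61 ± 0.14, edgeR adjusted p = 0.0322) and lost its call without BOM replicate 1, BOM replicate 2 or BOM+IFNg replicate 1.

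The granule protein Chga, the adhesion molecule Ncam1 and the lung lineage factor Nkx2-1 did not pass. Nkx2-1 stood at 185 and 186 CPM without and at 179 and 151 CPM with IFNg.

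Of 18 tested Notch pathway genes (20 listed) and 16 tested mesenchymal genes (18 listed), 0 were called in edgeR, DESeq2 or voom, with medians of -0.14 and -0.04 and 1 gene in each list at an unadjusted p under 0.05. Without BOM+IFNg replicate 2, 2 mesenchymal genes were called lower. Lfng, which modifies Notch receptors and had the lowest p of the Notch list, stood at 32.9 and 34.2 CPM without and at 25.1 and 21.4 CPM with IFNg (-0.54 ± 0.16, edgeR adjusted p = 0.117). The receptor Notch1 stood at 243 and 269 CPM without and at 233 and 292 CPM with IFNg, and its target Hes1 at 14.9 and 12.9 CPM without and 12.8 and 16.1 CPM with IFNg, so both groups overlapped. Vim, a mesenchymal filament, and Fn1, a matrix protein, were low in BOM+IFNg replicate 1 (42.8 and 218 CPM) and in the other 3 libraries at 70.9 to 86.1 and 440 to 510 CPM.

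The sum of the tested fibroblast markers was also lowest in BOM+IFNg replicate 1: 1019 and 845 CPM without and 709 and 946 CPM with IFNg, mostly Col6a1. Of 9 tested (12 listed), 0 were called in edgeR, DESeq2 or voom, 1 had an unadjusted p under 0.05, and the median was -0.66. Dcn, a defining matrix gene of fibroblasts, stood at 2.96 and 2.71 CPM without and at 0.311 and 1.20 CPM with IFNg. The 3 tested endothelial markers (6 listed) summed to 48.9 and 33.4 CPM without and 52.8 and 53.9 CPM with IFNg, mostly Kdr. Of these 3, 0 were called in edgeR, DESeq2 or voom or had an unadjusted p under 0.05. The part of these markers in the results was not tested.

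Kdm1a, which encodes LSD1 itself, stood at 171 and 176 CPM without and at 176 and 180 CPM with IFNg (0.03 ± 0.09, edgeR adjusted p = 0.953). BOM acts on the protein, so this level is no check of the treatment. Of 12 tested genes of the LSD1 complexes (13 listed), 10 tested MYC and MAX network genes, 18 tested sterol synthesis genes and 12 tested stress response genes, 0 were called in edgeR, DESeq2 or voom. Their medians were -0.00, -0.02, -0.16 and 0.29, and 0, 1, 1 and 1 had an unadjusted p under 0.05. With the replicate block 1 stress response gene, Trib3, was called higher. Without BOM+IFNg replicate 1, 3 sterol genes, Mvd, Lss and Hmgcs1, were called lower. Mycl, the abundant MYC family member of these cells, stood at 1310 and 1557 CPM without and at 1173 and 1066 CPM with IFNg (-0.36 ± 0.13, edgeR adjusted p = 0.297). Myc was far lower, at 25.4 and 29.2 CPM without and at 19.8 and 38.4 CPM with IFNg, and its groups overlapped.

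Genes of cell division and histone genes were among the 50 falls. Of 27 tested proliferation genes, 2 fell and none rose, with a median log2 fold change of -0.24. Both libraries with IFNg lay below both without in 21 of the 27, against 20.6% of all genes tested. The count of falls in this list was 1 to 4 when a library was left out and 4 with the replicate block. Cdc20, which activates the anaphase-promoting complex, stood at 121 and 119 CPM without and at 74.4 and 83.1 CPM with IFNg (-0.61 ± 0.10, edgeR adjusted p = 0.000777). Aurka, a mitotic kinase, went from 76.6 and 89.7 CPM to 60.7 and 63.3 CPM (-0.42 ± 0.10, edgeR adjusted p = 0.0417), a call lost with DESeq2, with voom, with only the 2 groups compared, and without BOM replicate 2, either BOM+IFNg replicate or any of 4 libraries of DMSO cells.

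Mki67, the common marker of cycling cells, went from 955 and 975 CPM to 747 and 769 CPM without passing (-0.35 ± 0.10, edgeR adjusted p = 0.0896), and it passed with DESeq2. Ccna2, a cyclin of S phase and mitosis, went from 167 and 172 CPM to 126 and 133 CPM (-0.39 ± 0.10, edgeR adjusted p = 0.0667) and also passed with DESeq2 and with the replicate block. The replication genes Pcna and Mcm5 stood nearer to their level without IFNg (-0.21 ± 0.09 and -0.19 ± 0.10, not called).

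Other mitotic genes among the 50 falls, named after their values were seen, were Ube2c, the ubiquitin-conjugating enzyme that works with Cdc20, the spindle checkpoint kinase Bub1b, the centromere histone Cenpa, and Dlgap5, Kif22, Cdca3 and Ckap2. Bub1b went from 146 and 150 CPM to 111 and 108 CPM (-0.44 ± 0.09) and Cenpa from 163 and 163 CPM to 128 and 113 CPM (-0.44 ± 0.10). Each of these 7 lost its call without BOM replicate 2.

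Replication-dependent histone genes, a list assembled after the falls were seen, were also represented. Of 56 tested (61 listed), 8 fell and none rose, and the median log2 fold change was -0.49. Both libraries with IFNg lay below both without in 49 of the 56, against 20.6% of all genes tested. The list was drawn up from these falls, so that ordering is no separate support. The 56 genes summed to 4131 and 4106 CPM without and 3186 and 2750 CPM with IFNg. Hist1h1b, a linker histone, went from 259 and 272 CPM to 190 and 163 CPM (-0.59 ± 0.11), and Hist1h4d, a core histone, from 242 and 248 CPM to 176 and 157 CPM (-0.55 ± 0.11). The H2A variant H2afx, outside that list, went from 141 and 161 CPM to 102 and 99.9 CPM (-0.58 ± 0.11). Without BOM replicate 2 or without BOM+IFNg replicate 2 none of the 56 histones was called, and at most 17 were with another library left out. With the replicate block 20 were called lower. Copies of these genes are near-identical, so single-gene values are uncertain.

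The largest falls were outside the cell cycle. Dusp6, the phosphatase that ERK signaling induces to limit itself, stood at 41.3 and 37.0 CPM without and at 20.9 and 18.7 CPM with IFNg (-0.99 ± 0.19, edgeR adjusted p = 0.00483). Ier2, an immediate early gene, went from 103 and 79.2 CPM to 46.7 and 62.4 CPM (-0.74 ± 0.15). In a list of 19 tested ERK feedback and immediate early genes assembled after the values were seen, Dusp6 and Ier2 were the falls, and none rose (median -0.23). With the replicate block 5 of the 19 were called lower. Dusp6 lost its call without BOM replicate 1 or BOM+IFNg replicate 2, and Ier2 without BOM replicate 1 or BOM+IFNg replicate 1.

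Epcam, an epithelial adhesion molecule, stood at 59.3 and 54.0 CPM without and at 36.7 and 30.4 CPM with IFNg (-0.76 ± 0.12, edgeR adjusted p = 0.00119). Fras1, a basement membrane protein, went from 249 and 248 CPM to 172 and 117 CPM (-0.79 ± 0.14). With Cdc20, these were the 3 of the 50 falls that were called under each of the 19 alternative settings run. Kctd12, Fbn2, Mrpl34, Spock3 and Hist1h4a, the remaining falls named by rule, had log2 fold changes of -0.71, -0.68, -0.68, -0.80 and -0.64.

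**Figure D4:**
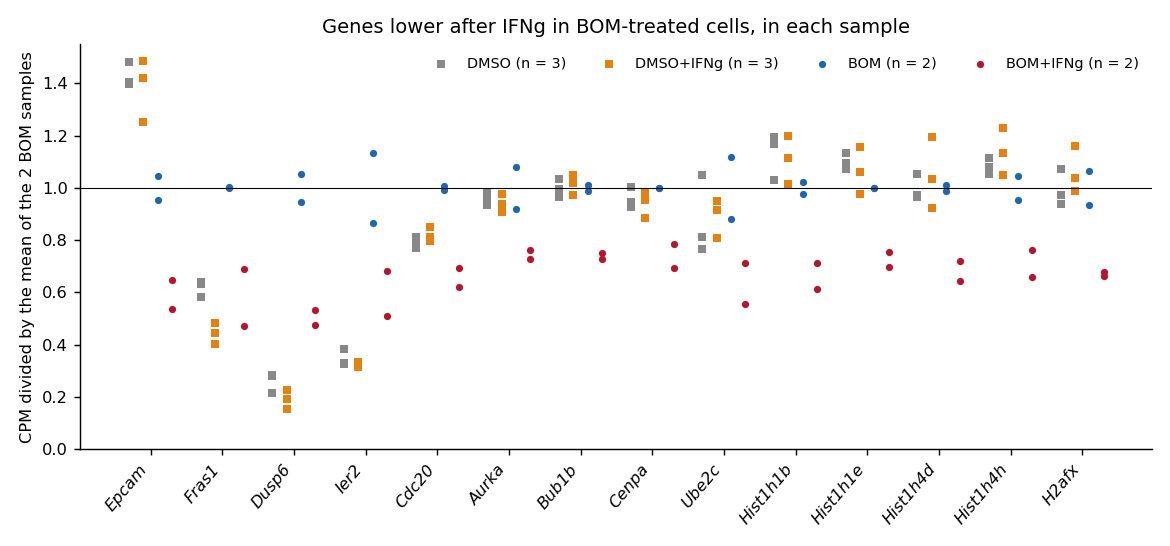
Level of 14 falling genes in each of the 10 libraries, as CPM divided by the mean of the 2 BOM libraries, which sets 1 on the y axis (starting at 0). Squares are DMSO (grey) and DMSO+IFNg (orange) libraries and circles are BOM (blue) and BOM+IFNg (red) libraries; both red circles lie below both blue ones in every gene drawn, while the orange squares of Cdc20 (mean 98.5 CPM with IFNg and 94.6 CPM without) stay beside the grey ones.

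The same contrast in DMSO cells called 345 genes (2.27%), 297 higher and 48 lower. The contrasts share no libraries. Of the rises, 213 were called in both, which is 80.7% of the rises in BOM cells and 71.7% of those in DMSO cells. Of the falls, 4 were called in both, 8% of those in BOM cells and 8.33% of those in DMSO cells: Fras1, Nova1, Sord and Spock3. The 46 falls called in BOM cells alone were not shown to differ from DMSO cells by that count, and the 50 falls had a median log2 fold change of -0.04 in DMSO cells.

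The difference itself was tested as an interaction. In edgeR 0 of 15230 genes passed (0%), with a lowest adjusted p of 0.127 and 725 genes at an unadjusted p under 0.05. DESeq2 called 13 and limma voom with sample weights called 0. With the replicate number as a block, which pairs the libraries with and without IFNg, edgeR called 10, 8 with the higher and 2 with the lower fold change in BOM cells.

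For 3 central genes the difference was smaller than its SE. The rise of H2-K1 was 5.19 ± 0.14 in BOM and 5.23 ± 0.12 in DMSO cells, that of Nlrc5 was 7.09 ± 0.21 and 6.97 ± 0.16, and that of Cd274 was 5.60 ± 0.38 and 5.40 ± 0.42. The differences and their SE were -0.04 ± 0.18, 0.12 ± 0.26 and 0.20 ± 0.57 on the log2 scale.

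The invariant chain Cd74 had a larger fitted rise in BOM cells, 8.37 ± 0.58 against 5.30 ± 0.32 in DMSO cells, a difference of 3.07 ± 0.66 (unadjusted p = 6.90e-05, edgeR adjusted p = 0.150). In DMSO cells it went from a mean of 2.06 to 78.2 CPM. Herc6, a ligase for Isg15, rose by 2.09 ± 0.14 against 0.96 ± 0.12, a difference of 1.13 ± 0.18 (edgeR adjusted p = 0.127), and Stat2 by 2.84 ± 0.12 against 1.97 ± 0.10, a difference of 0.87 ± 0.15 (edgeR adjusted p = 0.131). H2-T23 and Irf7 had differences of 1.74 ± 0.37 and 2.06 ± 0.43. All 5 had the larger fold change in BOM cells. None passed in edgeR without the replicate block, and all 5 were among the 10 genes called with it (edgeR adjusted p = 0.0195 for Herc6 and Stat2, 0.0362 for Cd74 and H2-T23 and 0.0376 for Irf7).

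Tns3 had a smaller log2 fold change in BOM cells, 0.25 against 1.05 in DMSO cells (difference -0.80 ± 0.15, edgeR adjusted p = 0.131). With the replicate block, Tns3 and Flt3 were the 2 genes called with the lower fold change in BOM cells (edgeR adjusted p = 0.0362 and 0.0376). Igtp also had the smaller fold change in BOM cells, without passing. Igtp rose by 5.68 ± 0.21 against 7.10 ± 0.23 in DMSO cells (difference -1.42 ± 0.31, edgeR adjusted p = 0.33). The level of Igtp without IFNg was higher in BOM cells, 8.56 and 7.68 CPM against a mean of 3.60 CPM in DMSO cells, and the levels with IFNg were 350 and 485 CPM against a mean of 510 CPM.

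Among the falls, Cdc20 had a log2 fold change of -0.61 ± 0.10 in BOM and 0.06 ± 0.08 in DMSO cells (difference -0.66 ± 0.12, edgeR adjusted p = 0.131). Epcam had -0.76 ± 0.12 and -0.04 ± 0.10 (difference -0.72 ± 0.16, edgeR adjusted p = 0.333). The histone list had a median of -0.49 in BOM cells and of 0.06 in DMSO cells, where edgeR called 0 and 1 had an unadjusted p under 0.05. That list was drawn up from the falls in BOM cells, so its lower median there is no separate support. In the interaction edgeR called 0 of the 56 tested histone genes.

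**Figure D5:**
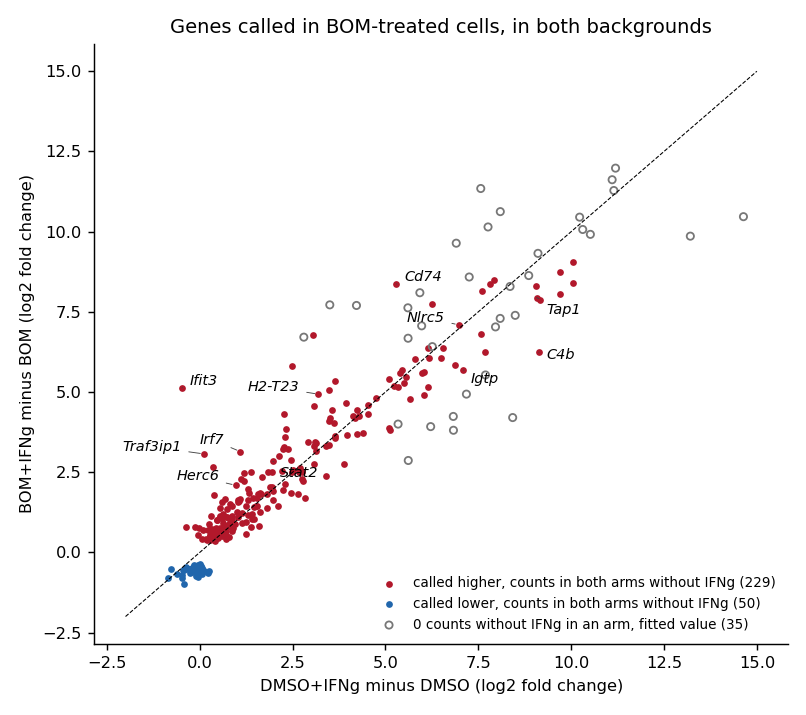
Log2 fold change after IFNg in BOM cells (y axis) against that in DMSO cells (x axis) for the 314 genes called in BOM cells, with equality as a dashed line. Red points are 229 rises and blue points 50 falls with counts in both arms without IFNg, and open circles are 35 genes with 0 counts without IFNg in an arm, whose fitted value is no bound; Cd74 lies above the line (8.37 against 5.30), Igtp lies below it (5.68 against 7.10), and the falls gather near 0 on the x axis.

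Many of the rises were neighbors, though how often all genes tested group in this way was not computed. Of 259 rising genes with coordinates in GENCODE M21, 51 lay in 7 groups of at least 5 with gaps of at most 500 kb, 78 in 15 groups of at least 3, and 121 lay alone. Each span below runs from the first to the last rising gene of its group, so its share of rising genes is high by construction. The MHC region on chromosome 17 (33915899 to 34743882) held 13 rises among 38 genes tested, from Tapbp through H2-K1, Psmb9, Tap1, Psmb8, Tap2, H2-Ab1, H2-Aa and H2-Eb1 to C4b. On chromosome 11 (48861968 to 49114874) 8 of 8 tested genes rose, among them Irgm1, Tgtp1, Tgtp2 and Ifi47. On chromosome 5 (105014150 to 105346472) and chromosome 3 (142493978 to 142638008) 6 of 6 and 4 of 4 tested genes rose, all of them guanylate-binding proteins. The Cd274 locus on chromosome 19 (29251828 to 29388095) held 4 of 4, with Jak2, Plgrkt, Cd274 and the overlapping Gm36043. Neighbors that overlap or are near-identical can share reads, and this was not tested.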

How the data were processed

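Whole-number counts of reads per gene for the 10 d cultures were made and deposited by the authors. Per the submitters' processing notes, bcl2fastq, STAR 2.7, FastQC 0.11.9, featureCounts, Subread 2.0 and mm10 were used. Per the labels' protocols, the 10 d libraries were from total RNA with a NEBNext Ultra kit. Strand use in counting is not given in the sources used here, so overlapping genes on opposite strands are treated as uncertain.

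All 10 libraries in 4 groups were fitted together in edgeR 4.0.16 (R 4.3.3): filterByExpr, TMM, quasi-likelihood F-test, 6 residual degrees of freedom, Benjamini-Hochberg adjustment over 15230 genes, calls at an adjusted p under 0.05. The biological coefficient of variation was 0.104. No 2 libraries agreed within sampling noise (lowest chi-square per degree of freedom 2.45). TPM used the deposited gene lengths. Gene IDs matched GENCODE M21 for 98.2%. Alternatives used DESeq2 1.42.0 and limma 3.58.1. Standard errors are Wald errors of the fitted contrast with the quasi-likelihood variance, and never below the counting error. The fit was checked on simulated counts.

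The labels number the replicates alike in each group but do not say what a number shares. Deviations from the group mean correlated above 0.1 in all 5 same-numbered pairs with and without IFNg in one background (0.125 to 0.48). The 2 BOM pairs are 1 value, 0.252, because the deviations of 2 libraries mirror each other. Across backgrounds 4 of 8 same-numbered pairs were above 0.1 (lowest 0.0504). Some pairs with unlike numbers reached similar values. DMSO replicate 3 and DMSO+IFNg replicate 2 stood at 0.272, and DMSO+IFNg replicate 3 and BOM+IFNg replicate 2 at 0.252. The correlations thus do not settle what a number shares. The block, which spans both backgrounds, is printed where it changes a call.

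The libraries compared, the 33 gene lists and the 3 added lists were chosen with earlier results of these data known. The rule for named genes took the 12 largest rises and 10 largest falls among called genes (mean log2 CPM at or above 2, groups not overlapping, no predicted genes), the 3 lowest p-values of each list, and a preset list of IFNg, MHC and lineage genes. Other genes named were chosen after their values were seen. A few members of the lists are not reported here by name.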

Additional observations from a re-analysis of the deposited data

How the results depend on the processing

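The comparison rests on 2 libraries a group, and leaving out a library moved the count of calls more than any normalization. Over the 10 such fits the calls ran from 178 to 356 against 314, the rises from 166 to 282, the falls from 12 to 77, and the calls for the difference between backgrounds, like its rises, from 0 to 1. A lone library in a group was then assumed to vary like the other groups. Of 264 rises, 151 were called under every alternative that tested them, and 3 of 50 falls were. Of 227 genes followed in full, none reversed, but Traf3ip1, outside that set, did. The share of rises among calls was 84.1%, and it was 71.9% without a filter on low counts, where 506 genes were called and 142 fell, and 72.1% with the replicate block, where 458 were called, 330 rose and 128 fell. Of the 227 genes followed in full, the block changed the call of 3 (Ccna2, Cd47 and Trib3). For the difference between backgrounds, DESeq2 called 13 genes (7 higher and 6 lower in BOM cells), no filter on low counts 67 (32 and 35), and the replicate block 10 (8 and 2). The causes were not tested. For the IFNg response in BOM cells, counts were within 1.5 times of the main ones with DESeq2, voom weights, RLE factors, library sizes, a filter of 1 CPM in 2 samples, the 2 groups alone, and without Gm26917 and Gm42418. Genes under about 3 counts in a library are limited by depth.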

Other observations

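Of the 264 genes that rose with IFNg in BOM-treated cells, 141 were in none of the 33 gene lists. The genes in this section were named after their values were seen, and changes are on the log2 scale with their SE. The apolipoprotein L family, channel-forming proteins related to a human trypanosome-killing factor, rose in 8 of 9 tested members (14 listed), with a median log2 fold change of 5.46 as fitted and 4.48 with genes at 0 at their bound. The 9 tested members summed to 2.49 and 4.97 CPM in the BOM libraries, so several were tested only through libraries with IFNg. The 8 that rose lie together on chromosome 15 (77044729 to 77736382), in a span with 10 tested genes. Apol6 stood at 0.779 and 1.96 CPM without and at 50.6 and 71.6 CPM with IFNg (5.46 ± 0.47). The copies are near-identical, so reads may be shared among them. Lgals3bp, a secreted glycoprotein, went from 2.80 and 3.01 CPM to 60.7 and 65.3 CPM (4.43 ± 0.27), and the lectin Clec2d from 0.934 and 0.602 CPM to 15.7 and 18.3 CPM (4.45 ± 0.47). Both had groups far apart and kept their calls in each alternative run.

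Lrp1b, a large endocytic receptor, went from 2.96 and 5.57 CPM to 43.7 and 42.2 CPM (3.32 ± 0.30). Tmem108, a neuronal membrane protein, went from 17.4 and 14.7 CPM to 78.3 and 72.4 CPM (2.23 ± 0.15), against 1.18 ± 0.12 in DMSO cells (difference 1.04 ± 0.19, edgeR adjusted p = 0.131, and 0.0362 with the replicate block). Xdh, which makes uric acid, rose by 1.46 ± 0.11 and Parp3 by 2.74 ± 0.19. The ligase Rnf19b went from 36.3 and 44.1 CPM to 198 and 259 CPM (2.51 ± 0.15). These 5 kept their calls in each alternative run.

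The surface proteins Ly6a and Ly6e rose on chromosome 15. Ly6a had 0 counts in both BOM libraries and reached 3.11 and 4.70 CPM after IFNg (at least 17.6-fold higher). Ly6e rose by 1.70 ± 0.17. Of the signaling genes, the receptor chain Il15ra rose by 1.57 ± 0.23, the peptidoglycan sensor Nod1 by 1.81 ± 0.17, and the macrophage growth factor Csf1 by 1.68 ± 0.30, the last from 7.94 and 12 CPM to 21.5 and 42.2 CPM and not called without BOM replicate 1 or BOM+IFNg replicate 2. Small rises were seen in the lysosomal genes Lamp2 (0.51 ± 0.11), Grn (0.50 ± 0.11), Scarb2 (0.40 ± 0.09) and Gaa (0.40 ± 0.09). Each of these 4 lost its call without BOM replicate 2, and Lamp2, Grn and Scarb2 also without BOM+IFNg replicate 2. Grn, Scarb2 and Gaa lost it without BOM replicate 1, and Scarb2 and Gaa without BOM+IFNg replicate 1 or some libraries of DMSO cells. With only the 2 groups compared, Scarb2 and Gaa were not called (edgeR adjusted p = 0.0695 and 0.0929).

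Tiparp, an ADP-ribosyltransferase, rose in BOM cells, from 25.5 and 21.5 CPM to 39.4 and 42.7 CPM (0.80 ± 0.16), and had a log2 fold change of -0.38 ± 0.14 in DMSO cells, which did not pass. The difference was 1.19 ± 0.21 (edgeR adjusted p = 0.131, and 0.0195 with the replicate block), and the call in BOM cells was lost without BOM replicate 2 or BOM+IFNg replicate 2.

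Traf3ip1, a ciliary protein, was the 1 gene called higher whose groups overlapped. It stood at 26.2 and 30.4 CPM in the BOM libraries and at 26.8 and 443 CPM in the BOM+IFNg libraries (3.07 ± 0.68, edgeR adjusted p = 0.0215). Without BOM+IFNg replicate 2 its log2 fold change was -0.09 (edgeR adjusted p = 0.922), so the call rests on that library.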
